A study of Mus musculus with 8 samples.

Results

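The genes described here encode the signalling chains of the T cell receptor complex, its coreceptors and surface proteins that mark T cells. They were taken by symbol from the deposited count table: Cd3d, Cd3e, Cd3g and Cd247 for the complex, Cd8a, Cd8b1 and Cd4 for the coreceptors, and Cd2, Cd5 and Thy1 for the surface proteins. All 10 were present, among 24924 genes analysed, and none of them was at a count of 0 in every library.

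The antigen receptor of a T cell has no signalling domain of its own. It reaches the surface together with the CD3 gamma, delta and epsilon chains and the zeta chain encoded by Cd247, whose cytoplasmic motifs are phosphorylated by the kinase Lck once antigen is bound. CD8, made of an alpha and a beta chain in conventional killer T cells, binds MHC class I, and CD4 on helper and regulatory T cells binds MHC class II. Both coreceptors bring Lck to the receptor.

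The libraries were made from T cells and microglia, the resident macrophages of the brain, each isolated from brain by sorting on surface markers that the labels do not name. The mice were C57BL/6, aged 20 to 22 months. They received interleukin-5 (IL-5), a cytokine known for its action on eosinophils and B cells, at 2 µg a day on 2 days, or phosphate-buffered saline (PBS). The 4 groups, T cells after IL-5, T cells after PBS, microglia after IL-5 and microglia after PBS, held 2 libraries each, and the labels do not say whether these came from separate mice, so p-values measure the spread between these libraries, which may be technical.

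Each library held between 23536908 and 30423828 counts in genes, and levels are given in CPM, counts scaled to the total of each library, in which a single count was worth 0.0329 to 0.0425. Microglia IL-5 replicate 1 stood apart from the other libraries. It had 13172 genes with a count, the fewest of the 8, and 25.5% of its counted reads lay outside annotated genes, against 15.2% to 19.8% in the others. The 10 genes summed to 3605 and 4337 CPM in IL-5 T cells and to 5457 and 6110 CPM in PBS T cells. In microglia they summed to 16.6 and 172 CPM after IL-5 and to 72.2 and 91.5 CPM after PBS. The T cell label was thus borne out by these markers, the genes described here, in all 4 T cell libraries. The microglia label was borne out by a list of 15 microglial genes, which summed to 43678 and 33513 CPM in IL-5 microglia and to 41918 and 39900 CPM in PBS microglia. Libraries of both cell types also held transcripts of other cells. In IL-5 T cells a list of 10 choroid plexus genes summed to 113043 and 116414 CPM. It summed to 84110 and 59057 CPM in PBS T cells. In microglia the same list summed to 60068 and 63979 CPM after IL-5 and to 43247 and 35932 CPM after PBS. A list of 10 neutrophil genes summed there to 16803 and 13586 CPM after IL-5 and to 15033 and 17601 CPM after PBS. Lists of 6 oligodendrocyte and 8 endothelial genes summed to 1636 to 2620 CPM and 1039 to 1970 CPM over the T cell libraries. Over the microglia libraries they summed to 224 to 826 CPM and 532 to 761 CPM.

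The 10 genes lie on 5 chromosomes of the mouse build GRCm38, by the GENCODE M21 annotation. On chromosome 9, Cd3g (chr9:44969572-44980431, minus strand), Cd3d (chr9:44981786-44987339, plus strand) and Cd3e (chr9:44998740-45009627, minus strand) form a cluster, in which the starts of Cd3g and Cd3d are 1355 bp apart and point away from each other. Thy1 (chr9:44043384-44048579, plus strand) is on the same chromosome. Chromosome 6 carries Cd8b1 (chr6:71322788-71337494, plus strand), Cd8a (chr6:71373427-71379173, plus strand) and Cd4 (chr6:124864692-124888221, minus strand), with 35.9 kb between the CD8 genes. Cd247 is on chromosome 1 (chr1:165788681-165877277, plus strand), Cd2 on chromosome 3 (chr3:101275899-101287939, minus strand) and Cd5 on chromosome 19 (chr19:10717116-10739002, minus strand). Cd247 shares 3007 exonic bp with Pou2f1 on the opposite strand, and the strand setting of the counting is not given in the sources used here, so counts of Cd247 are uncertain to that extent.

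Promoter sequences from 250 bases before to 50 bases after the annotated start were found for 6 of the 10 genes in the RefSeq table of GRCm38.p6. The neighbours Cd3g and Cd3d are shown because their levels went together over the T cell libraries, Cd8a as a coreceptor chain that went with them, and Cd247 as the chain of the complex that did not. Each is written in its own direction of transcription, and capitals mark the ETS core AGGAAG or its reverse complement CTTCCT. The Cd3g promoter is at chr9:44980382-44980681 on the minus strand, that of Cd3d at chr9:44981536-44981835 on the plus strand, that of Cd8a at chr6:71373177-71373476 on the plus strand and that of Cd247 at chr1:165788431-165788730 on the plus strand.
Cd3g: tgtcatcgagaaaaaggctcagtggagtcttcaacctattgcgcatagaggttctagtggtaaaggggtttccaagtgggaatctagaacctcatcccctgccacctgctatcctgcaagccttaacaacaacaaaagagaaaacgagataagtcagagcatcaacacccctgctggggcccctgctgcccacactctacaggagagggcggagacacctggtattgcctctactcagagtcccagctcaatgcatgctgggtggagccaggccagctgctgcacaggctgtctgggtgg
Cd3d: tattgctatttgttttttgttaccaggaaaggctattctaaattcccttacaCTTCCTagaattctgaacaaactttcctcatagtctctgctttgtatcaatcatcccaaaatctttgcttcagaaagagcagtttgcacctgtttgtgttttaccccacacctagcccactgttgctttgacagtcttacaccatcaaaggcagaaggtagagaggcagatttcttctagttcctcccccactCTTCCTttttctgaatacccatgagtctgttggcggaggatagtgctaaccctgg
Cd8a: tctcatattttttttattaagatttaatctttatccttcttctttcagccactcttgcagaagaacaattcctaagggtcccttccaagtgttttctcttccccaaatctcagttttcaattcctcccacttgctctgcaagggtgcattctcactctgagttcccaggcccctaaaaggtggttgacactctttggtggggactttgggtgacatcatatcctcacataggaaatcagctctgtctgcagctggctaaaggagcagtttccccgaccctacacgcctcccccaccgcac
Cd247: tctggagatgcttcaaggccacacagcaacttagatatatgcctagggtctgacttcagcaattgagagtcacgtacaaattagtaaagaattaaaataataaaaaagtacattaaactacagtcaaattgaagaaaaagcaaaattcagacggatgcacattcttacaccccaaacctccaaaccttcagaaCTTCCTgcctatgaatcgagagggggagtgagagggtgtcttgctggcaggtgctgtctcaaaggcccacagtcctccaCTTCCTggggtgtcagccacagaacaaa
The ETS core occurred at 2 places each in the promoters of Cd3d, Cd3e, Cd247 and Cd5, and these letters were not found in the windows of Cd3g and Cd8a. Searched on both strands, the motif occurred in 35.4% of the 32851 promoters in the table. The RUNX core TGTGGT and the TATA box TATAAA, present in 16.8% and 13.6% of all promoters, were found in none of the 6 windows. These matches describe the letters only.

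Brain T cells carried the transcripts of the CD3 chains and of both CD8 chains at high levels, with little Cd4. Levels of different genes were compared as CPM per kb of annotated exon, as the median over the 4 T cell libraries. Cd8b1, the CD8 beta chain, stood highest at 677 CPM per kb, and its range did not meet that of the next gene, Cd3d, the CD3 delta chain, at 348 CPM per kb. Cd3g at 318, Cd2 at 257, Cd8a at 184 and Cd3e at 162 CPM per kb followed, each with a range that met that of the gene above it. Thy1, a glycoprotein on the T cell surface, was at 58.1 CPM per kb, below the range of Cd3e, and Cd247 at 31.3 CPM per kb overlapped with it. Cd5 and Cd4 were lowest, at 16.02 and 15.98 CPM per kb with overlapping ranges, and Cd5 lay below the range of Cd247. Cd8b1 also stood above Cd8a in CPM in each T cell library. The size of the gap per kb depended on the length used, 1483 bp for Cd8b1 and 3637 bp for Cd8a.

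The comparison of IL-5 with PBS in T cells asked whether these genes were at another level after the cytokine. Most chains of the complex and both CD8 chains were lower in the IL-5 libraries, but none of the 10 genes passed the test over all genes. Among the chains of the complex, Cd3g, the CD3 gamma chain, had 660 and 881 CPM in IL-5 T cells, against 1197 and 1300.4 CPM in PBS T cells. Cd3d had 421 and 571 CPM in IL-5 T cells, against 692 and 730 CPM in PBS T cells. Cd3e, the CD3 epsilon chain that pairs with both other CD3 chains, had 449 and 644 CPM in IL-5 T cells, against 675 and 765 CPM in PBS T cells. For these CD3 chains both IL-5 libraries lay below both PBS libraries, and IL-5 replicate 1 was the lowest of the 4. Cd247, the zeta chain that carries most of the signalling motifs, had 163 and 171 CPM in IL-5 T cells, against 154 and 277 CPM in PBS T cells, and the groups overlapped because PBS replicate 1 was the lowest.

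Of the coreceptors, Cd8b1 had 737 and 835 CPM in IL-5 T cells, against 1174 and 1263 CPM in PBS T cells. Cd8a, the chain that contacts MHC class I and carries the Lck binding site, had 511 and 563 CPM in IL-5 T cells, against 772 and 867 CPM in PBS T cells. Both CD8 genes separated the groups with a gap wider than the spread within either group. Cd4 went the other way on average but overlapped, with 69.7 and 59.2 CPM in IL-5 T cells, against 31.1 and 72.9 CPM in PBS T cells.

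Among the surface proteins, Cd2, the adhesion receptor that binds CD48 in the mouse, had 393 and 355 CPM in IL-5 T cells, against 502 and 514 CPM in PBS T cells. Thy1 had 148 and 151 CPM in IL-5 T cells, against 197 and 227 CPM in PBS T cells. Neither gene overlapped between the groups. Cd5, which dampens signalling from the receptor, overlapped, with 52.7 and 107 CPM in IL-5 T cells, against 62.4 and 95.4 CPM in PBS T cells.

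**Figure D1:**
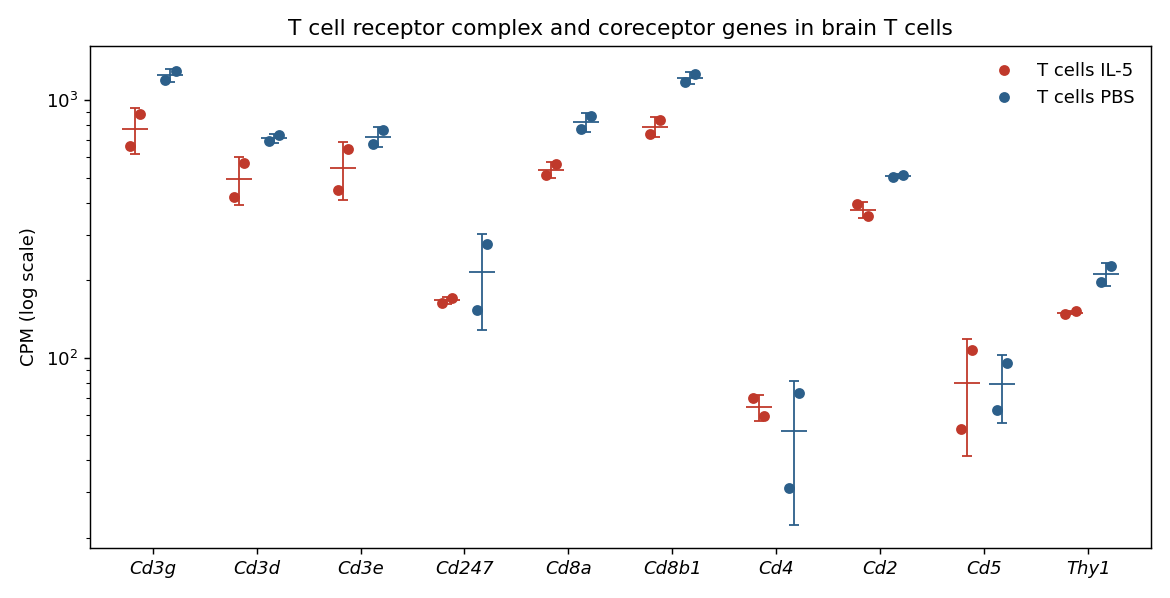
Levels of the 10 genes in brain T cells, in CPM on a log axis, after IL-5 (red) and PBS (blue). Points are libraries, replicate 1 left of replicate 2, horizontal lines the group means and bars the SD (n = 2). The IL-5 points of Cd3g, Cd3d, Cd3e, Cd8a, Cd8b1, Cd2 and Thy1 lie below both PBS points, and those of Cd247, Cd4 and Cd5 overlap with them.

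In all, 7 of the 10 genes had both IL-5 libraries below both PBS libraries, Cd3d, Cd3e, Cd3g, Cd8a, Cd8b1, Cd2 and Thy1, beside 17.3% of the 13897 genes tested in that direction, and 0 had both above, beside 18.1%. The edgeR quasi-likelihood test called 0 of the 10, as it called 0% of all genes, and each had an adjusted p of 0.9999. At an unadjusted p under 0.05 it counted 3 of the 10, all lower after IL-5, against 1.76% of all genes lower at that level. These were Cd8b1 (log2 fold change -0.58, SE 0.15, unadjusted p = 0.0086), Cd8a (-0.56, SE 0.16, unadjusted p = 0.0137) and Cd3g (-0.65, SE 0.19, unadjusted p = 0.0137). The other fitted log2 fold changes were -0.47 for Cd3d (SE 0.20), -0.35 for Cd3e (SE 0.22), -0.32 for Cd247 (SE 0.33), -0.39 for Cd2 (SE 0.18) and -0.45 for Thy1 (SE 0.23). Cd4 stood at 0.36 (SE 0.53) and Cd5 at 0.063 (SE 0.48). The median over the 10 genes was -0.42, with 8 of 10 below 0, beside a median of -0.012 over all genes tested. DESeq2, run as an alternative, called 3 of the 10, Cd8b1 (adjusted p = 8.87e-05), Cd8a (adjusted p = 0.000672) and Cd3g (adjusted p = 0.00405), all lower, beside 1.83% of all genes lower.

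Another scaling moved all genes alike, and with them the place of 0. When the libraries were scaled to the summed counts of 30 other genes of receptor signalling, the median of the 10 genes was -0.021 and that of all genes 0.38, a difference of -0.41, which was also the difference under TMM scaling. Under that scaling Cd3e (0.042), Cd247 (0.096) and Cd2 (0.0066) were above 0, as were Cd4 and Cd5. Cd3g, Cd3d, Cd8a, Cd8b1 and Thy1 were below it, and the shift from TMM scaling was common to all genes. None of the 10 genes then had an unadjusted p under 0.05 in edgeR. The 30 genes used for this scaling had a median of -0.32 themselves under TMM scaling. In such bulk samples fewer T cells in the sorted material and less RNA of these genes in each cell cannot be told apart.

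**Figure D2:**
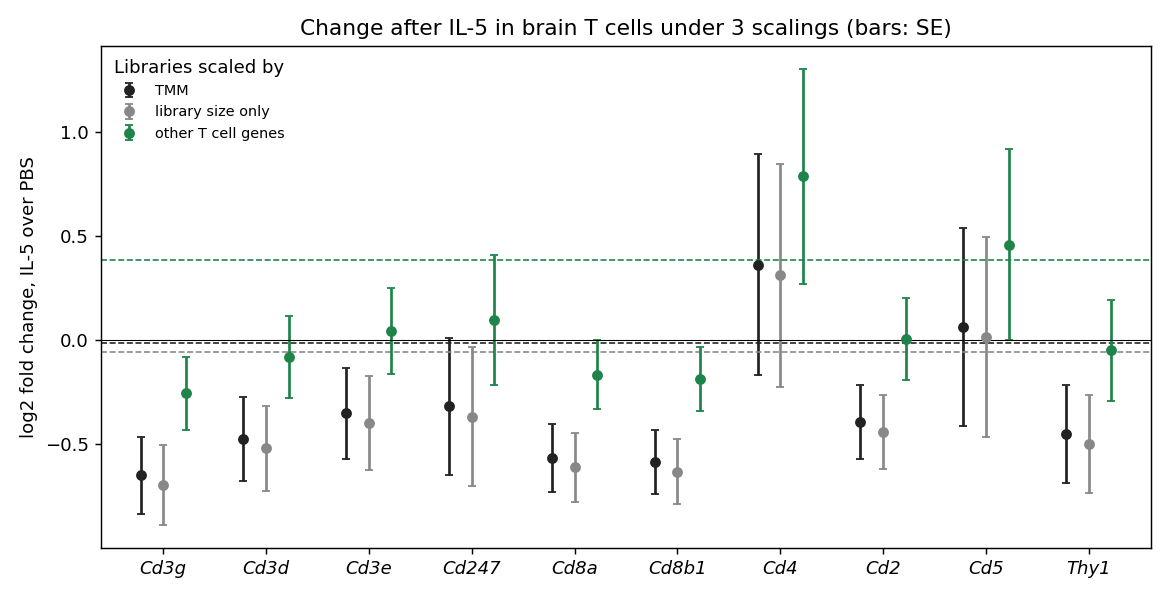
Fitted log2 fold change of the 10 genes in T cells, IL-5 over PBS, with its SE, under scaling by TMM (black), by library size only (grey) and by the summed counts of other T cell genes (green). Dashed lines are the medians of all genes tested under each scaling. The CD3 and CD8 chains lie below the median of all genes under each of the 3 scalings, with medians of the 10 genes of -0.42, -0.47 and -0.021.

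Transcripts of the choroid plexus, the tissue that makes cerebrospinal fluid, moved with the groups in the opposite direction. A list of 10 choroid plexus genes summed to 113043 and 116414 CPM in IL-5 T cells, against 84110 and 59057 CPM in PBS T cells. All 10 of its genes had fitted changes above 0, beside 49.2% of all genes tested, with a median of 0.78. None passed the adjusted threshold in edgeR, and none was at 0 in any library. At an unadjusted p under 0.05 edgeR counted 6 as higher, beside 355 of 13897 genes. DESeq2 called 4 of the list higher, beside 403 of 13897 genes. Its most abundant gene, Ttr, which encodes the thyroid hormone carrier transthyretin, had 89983 and 91511 CPM in IL-5 T cells, against 65068 and 45089 CPM in PBS T cells. The part of these transcripts in the values of the 10 genes was not tested. The list of 7 natural killer cell genes summed to 93.9 and 58.5 CPM in IL-5 T cells, against 116 and 136 CPM in PBS T cells. A list of 8 genes of helper and regulatory T cells summed to 202 and 231 CPM in IL-5 T cells, against 271 and 359 CPM in PBS T cells. Within it Cd40lg, the helper cell ligand of CD40, named here after its values were seen, went the other way, with 46.1 and 43.6 CPM in IL-5 T cells, against 17.6 and 19.9 CPM in PBS T cells (a fitted log2 difference of 1.31 with an SE of 0.57, at an adjusted p of 0.9999 in edgeR). The other 7 genes of the list were below 0, and its median was -0.85. DESeq2 called 1 of the 8 higher, the only gene of the list above 0, and 0 lower. Among all 13897 genes DESeq2 called 403 higher and 255 lower. The part of these cells in the result was not tested either.

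Several kinases, adaptors and phosphatases that act below the receptor were also at lower levels in both IL-5 libraries. Of 30 such genes, 0 passed the adjusted threshold in edgeR and 22 were below 0 after IL-5, beside 50.8% of all genes tested. At an unadjusted p under 0.05 edgeR counted 6 as lower, beside 1.76% of all genes. The median was -0.32, beside -0.012 over all genes. Ptpn22, a phosphatase that restrains Lck, had 211 and 224 CPM in IL-5 T cells, against 436 and 379 CPM in PBS T cells (log2 fold change -0.86, SE 0.20). Ptpn6, which encodes the phosphatase SHP-1, had 137 and 150 CPM in IL-5 T cells, against 267 and 265 CPM in PBS T cells (-0.84, SE 0.22). Tespa1, an adaptor needed in thymocyte selection, had 40.7 and 30.4 CPM in IL-5 T cells, against 89.5 and 103 CPM in PBS T cells (-1.39, SE 0.40). All 3 separated the groups, beside 17.3% of all genes lower without overlap. DESeq2 called 6 of the 30, all lower, beside 1.83% of all genes lower.

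Of 15 transcription factors of the T cell lineage, 0 passed in edgeR, and the median was 0.055. At an unadjusted p under 0.05 edgeR counted 2 as lower, beside 1.76% of all genes. DESeq2 called these 2, beside 1.83% of all genes lower. Runx3, a factor required for Cd8a expression and Cd4 silencing in the CD8 lineage, had 57.9 and 65.3 CPM in IL-5 T cells, against 122 and 139 CPM in PBS T cells (log2 fold change -1.03, SE 0.31). Tox, a factor of CD4 lineage development and of chronically stimulated CD8 cells, had 51.2 and 96.8 CPM in IL-5 T cells, against 167 and 200 CPM in PBS T cells (-1.26, SE 0.38). Ikzf3, which encodes the lymphoid factor Aiolos, had a fitted change of -0.73 (SE 0.31).

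Of the 7 genes for ligands of the coreceptors and of CD2, 0 passed in edgeR or DESeq2. In edgeR 1 was lower at an unadjusted p under 0.05, beside 1.76% of all genes. That gene, B2m, the light chain of MHC class I, had 6196 and 6254 CPM in IL-5 T cells, against 7495 and 8513 CPM in PBS T cells (log2 fold change -0.31, SE 0.12). The class I heavy chain H2-D1 had a fitted change of -0.35 (SE 0.15), and the class II chain H2-Eb1 one of 1.72 (SE 0.86). The constant chains of the mature antigen receptor were not analysed here. Ptcra, the alpha chain of the receptor precursor of immature thymocytes, was at a count of 0 in all 8 libraries.

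Ratios within a library do not depend on its scaling, and that of the CD8 chains varied least over the T cell libraries. The log2 ratio of Cd8b1 to Cd8a counts was 0.53 and 0.57 in IL-5 T cells, against 0.60 and 0.54 in PBS T cells, a spread of 0.033 (SD, n = 4). The log2 ratio of Cd3d to Cd3e was -0.092 and -0.17 in IL-5 T cells, against 0.035 and -0.067 in PBS T cells. That of Cd3g to Cd3e was 0.56 and 0.45 in IL-5 T cells, against 0.83 and 0.77 in PBS T cells. The CD8 ratio overlapped between the groups, while both CD3 ratios were lower in the 2 IL-5 libraries than in the 2 PBS libraries. The log2 ratio of Cd4 to the 2 CD8 genes together was -4.16 and -4.56 in IL-5 T cells, against -5.97 and -4.87 in PBS T cells, so that the groups did not overlap, with means 1.06 apart. The log2 ratio of the 3 CD3 genes to Cd247 was 3.23 and 3.62 in IL-5 T cells, against 4.06 and 3.33 in PBS T cells, which overlapped. With 2 libraries in a group an exact permutation test of a ratio between IL-5 and PBS cannot pass the threshold, so none was made.

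**Figure D3:**
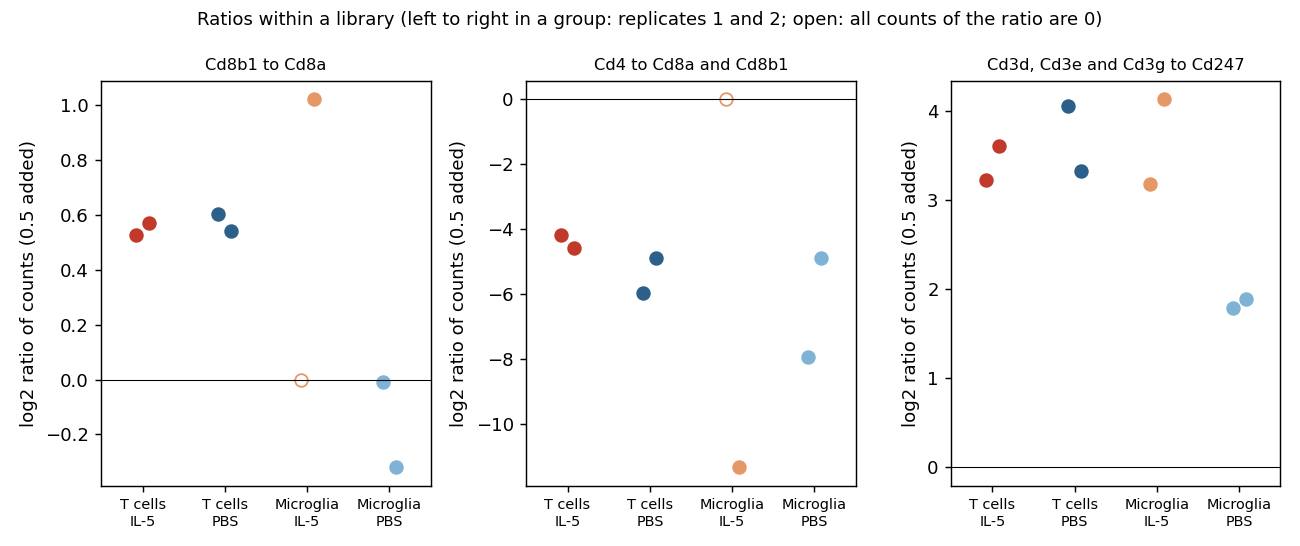
Log2 ratios of counts within a library, with 0.5 added to each side: Cd8b1 to Cd8a, Cd4 to Cd8a and Cd8b1, and the CD3 genes to Cd247. Points are libraries, replicate 1 left of replicate 2, and open points are libraries in which every count of the ratio is 0, so that their ratio is undefined. The 4 T cell libraries lie between 0.53 and 0.60 for Cd8b1 to Cd8a, and those of microglia spread more widely.

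In microglia the same transcripts were present at low levels, and in IL-5 replicate 1 they were at 0 for 5 of the 10 genes. Cd3d had 6.33 and 32.2 CPM in IL-5 microglia, against 15.6 and 11.7 CPM in PBS microglia. Cd3g had 0.042 and 46.4 CPM in IL-5 microglia, against 14.7 and 8.21 CPM in PBS microglia, the lowest value being 1 count. Cd3e had 0 and 7.56 CPM in IL-5 microglia, against 4.08 and 9.68 CPM in PBS microglia. The CD3 genes thus differed between the IL-5 replicates by more than between the groups. Cd247 had 0.68 and 4.88 CPM in IL-5 microglia, against 9.93 and 7.99 CPM in PBS microglia, with both IL-5 libraries lower.

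The CD8 genes were ordered like Cd3g and Cd3d over the IL-5 libraries. Cd8a had 0 and 15.6 CPM in IL-5 microglia, against 6.05 and 12.9 CPM in PBS microglia. Cd8b1 had 0 and 31.7 CPM in IL-5 microglia, against 6.02 and 10.3 CPM in PBS microglia. Again IL-5 replicate 1 was the lowest library and IL-5 replicate 2 the highest. Cd4 was at 0 in both IL-5 libraries, against 0.033 and 0.77 CPM in PBS microglia, which were 1 and 21 counts.

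Of the surface proteins, Cd2 had 4.63 and 21.7 CPM in IL-5 microglia, against 10.4 and 16.7 CPM in PBS microglia. Cd5 had 0 and 4.55 CPM in IL-5 microglia, against 1.58 and 7.70 CPM in PBS microglia. Both overlapped between the groups. Thy1 had 4.93 and 7.67 CPM in IL-5 microglia, against 3.88 and 5.52 CPM in PBS microglia, overlapping in CPM but not after TMM scaling. For a gene at 0 the upper limit was 3 counts, which is 0.127 CPM in IL-5 replicate 1 and 0.11 CPM in IL-5 replicate 2, and this limit covers counting error only.

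**Figure D4:**
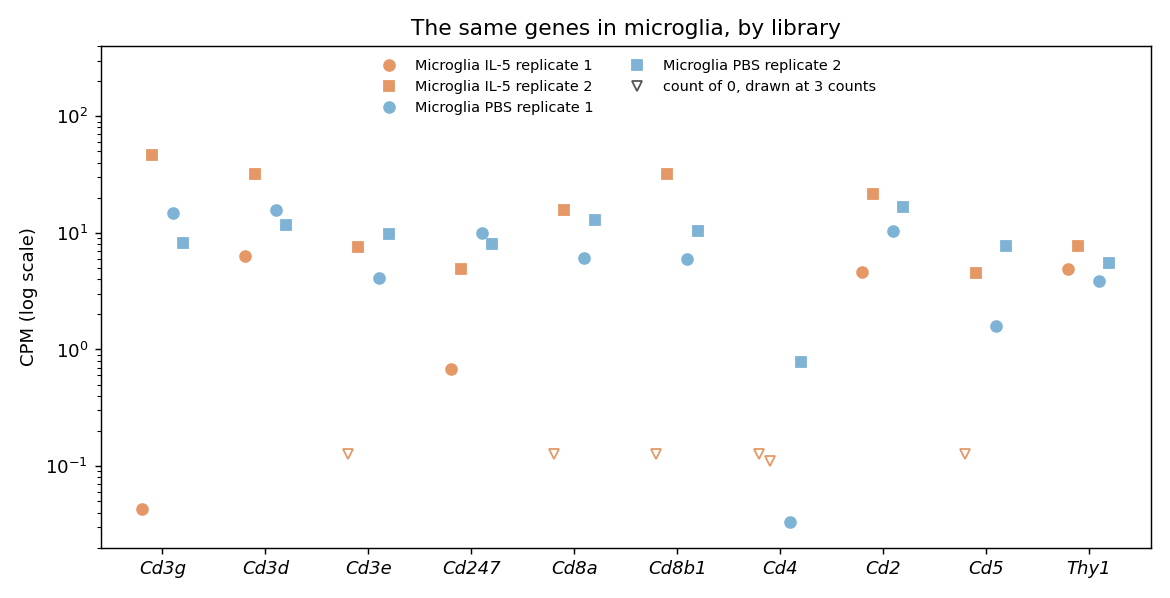
Levels of the 10 genes in microglia, in CPM on a log axis, after IL-5 (orange) and PBS (light blue), with circles for replicate 1 and squares for replicate 2. Open triangles are counts of 0, drawn at the level of 3 counts in that library. IL-5 replicate 1 lies below both PBS libraries for 9 of the 10 genes, and IL-5 replicate 2 above both for 6.

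T cells were set against microglia within each treatment, with all 8 libraries in 1 fit. Since these genes mark T cells, the sizes describe how far the sorted populations stood apart, and they are given with their test. In IL-5 mice 5 of the 10 genes passed the edgeR test as higher in T cells and 0 as lower, beside 2.49% of 15397 genes higher and 5.73% lower, or 8.22% in either direction. These were Cd3d (log2 fold change 3.95, SE 0.61, adjusted p = 0.0067), Cd247 (5.18, SE 0.80, adjusted p = 0.0067), Cd2 (4.10, SE 0.61, adjusted p = 0.00555), Thy1 (3.76, SE 0.45, adjusted p = 0.0020) and Cd4 (adjusted p = 0.00994). As Cd4 was at 0 in both IL-5 microglia libraries, its fold is given as a bound, at least 298-fold higher in T cells on the TMM scale, against 3 counts in each library.

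In PBS mice the test also called 5 of the 10 higher and 0 lower, beside 2.57% of all genes higher and 4.6% lower, or 7.18% in either direction. They were Cd3d (log2 fold change 5.003, SE 0.64, adjusted p = 0.00235), Cd247 (3.89, SE 0.75, adjusted p = 0.0165), Cd4 (6.32, SE 1.44, adjusted p = 0.0356), Cd2 (4.53, SE 0.62, adjusted p = 0.00323) and Thy1 (4.80, SE 0.47, adjusted p = 0.000712). The value of Cd4 rests on 1 and 21 counts in PBS microglia, and it ran from 5.33 to 9.68 without each library. All 10 genes had both T cell libraries above both microglia libraries in either treatment, beside 28.9% of genes in IL-5 mice and 29.1% in PBS mice, and 0 had them below, beside 24.3% and 29.9%. The other 5, Cd3e, Cd3g, Cd8a, Cd8b1 and Cd5, had large fitted changes with large errors, from 4.39 to 6.49 in IL-5 mice (SE 1.63 to 1.79, adjusted p 0.0509 to 0.187) and from 3.40 to 6.52 in PBS mice (SE 1.58 to 1.92, adjusted p 0.0639 to 0.243). The median over the 10 genes was 4.71 in IL-5 mice, also with Cd4 at its bound, and 5.37 in PBS mice, beside medians of 0.19 and 0.056 over all genes. With scaling by library size only the median of all genes was 1.01 in IL-5 mice and 0.75 in PBS mice, and the 10 genes stood 4.37 and 5.31 above it.

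The number of genes called rested on single libraries. Without microglia IL-5 replicate 1 the test called 9 in IL-5 mice, beside 2.22% of all genes higher, and 10 in PBS mice, beside 4.84%. Without microglia IL-5 replicate 2 it called 10 in each, beside 6.2% in IL-5 mice and 5.01% in PBS mice. In PBS mice leaving out T cells PBS replicate 2 left 3 calls, beside 0.907%, and leaving out microglia PBS replicate 1 also left 3, beside 0.96%. DESeq2 called 8 in IL-5 mice, beside 7.4% of all genes higher, and 9 in PBS mice, beside 7.85%.

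**Figure D5:**
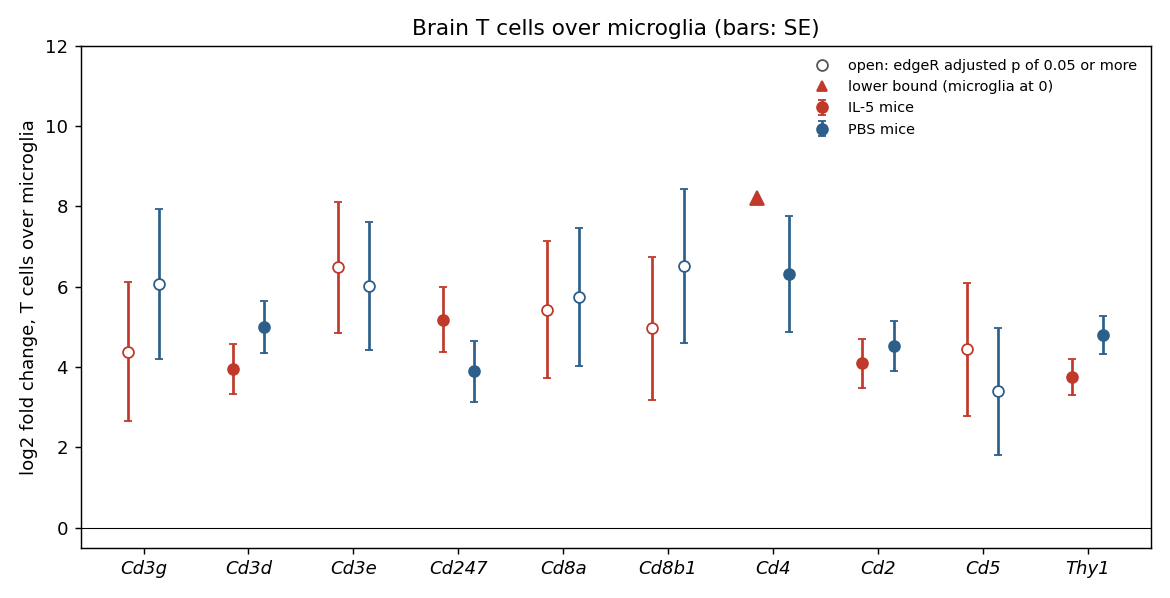
Fitted log2 fold change, T cells over microglia, with its SE, in IL-5 mice (red) and PBS mice (blue). Filled points passed the edgeR adjusted threshold, open points did not, and the triangle is the lower bound for Cd4, which was at 0 in IL-5 microglia. All values are above 0, from 3.40 for Cd5 in PBS mice to the bound of 8.22 for Cd4 in IL-5 mice.

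As a share of the mean T cell level, the microglial level of the 10 genes together was 2.38% in IL-5 mice and 1.42% in PBS mice. These shares are in CPM, without the TMM scaling of the fits, and so do not match the inverse of the fitted folds. The IL-5 libraries differed about this mean, with 0.418% in replicate 1 and 4.34% in replicate 2, and the PBS libraries had 1.25% and 1.58%. In PBS mice the share was 4.61% and 3.71% by replicate for Cd247, against 0.494% and 0.849% for Cd8b1 and 1.17% and 0.658% for Cd3g. For Cd5 it was 2.00% and 9.75% and for Cd4 0.0632% and 1.49%, so that a single library moved these shares by several times. In IL-5 mice Thy1 had 3.29% and 5.13%, and Cd3d 1.28% and 6.50%. Ratios to Cd3e were compared between the 4 T cell and the 4 microglia libraries with a two-sided exact permutation test. The log2 ratio of Cd3d to Cd3e averaged -0.075 ± 0.086 in T cells and 3.13 ± 3.49 in microglia (SD, n = 4 each, exact p = 0.0286, the smallest this design can give). The ratios of Cd2 and Thy1 to Cd3e gave the same p, each lower in all 4 T cell libraries than in any microglia library. None of the 8 ratios passed after Benjamini-Hochberg adjustment over the 8 (smallest exact adjusted p = 0.0571). For 3 of them, among them Cd5 to Cd3e, the ratio is undefined in microglia IL-5 replicate 1, where all their counts are 0, so that their test is void. Adjusted over the other 5 alone, a choice made after seeing the data, the ratios of Cd3d, Cd2 and Thy1 to Cd3e passed (exact adjusted p = 0.0476 each). Their extreme value came from that library, where Cd3e is at 0, and with it left out the design cannot pass.

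The other genes of receptor signalling were also mostly higher in T cells. Of the 30, the edgeR test called 12 higher and 1 lower in IL-5 mice, beside 2.49% and 5.73% of all genes. In PBS mice it called 8 higher and 0 lower, beside 2.57% and 4.6%. The medians were 4.91 and 4.53. Lat, the adaptor that links the receptor to downstream enzymes, had 218 and 273 CPM in IL-5 T cells, against 2.25 and 4.70 CPM in IL-5 microglia (log2 fold change 5.35, SE 0.61, adjusted p = 0.00165). Ptprc, which encodes the leukocyte phosphatase CD45, had 947 and 858 CPM in IL-5 T cells, against 140 and 133 CPM in IL-5 microglia (1.87, SE 0.32, adjusted p = 0.00937). Pag1, a membrane adaptor that recruits the inhibitory kinase Csk, was the gene called lower, with 2.61 and 14.5 CPM in IL-5 T cells, against 49.9 and 75.0 CPM in IL-5 microglia (-3.70, SE 0.79, adjusted p = 0.0237).

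Of the 15 transcription factors, the test called 5 higher and 1 lower in IL-5 mice, beside 2.49% and 5.73% of all genes. In PBS mice it called 6 higher and 1 lower, beside 2.57% and 4.6%. Ets1, a factor of lymphoid cells, had 312 and 463 CPM in IL-5 T cells, against 66.8 and 65.8 CPM in IL-5 microglia (log2 fold change 1.69, SE 0.37, adjusted p = 0.0248). Runx1, which myeloid cells also express, was the gene called lower in both treatments, with 51.0 and 37.3 CPM in IL-5 T cells, against 148 and 108 CPM in IL-5 microglia (-2.41, SE 0.49, adjusted p = 0.0196). Of the ligand genes, 3 were called lower in T cells in each treatment, beside 5.73% of all genes in IL-5 mice and 4.6% in PBS mice. The class II chains H2-Ab1 (-4.69, SE 0.54, adjusted p = 0.00168 in IL-5 mice) and H2-Aa (-4.96, SE 0.61, adjusted p = 0.00237 in IL-5 mice), ligands of CD4, were among them in both.

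IL-5 against PBS in microglia gave no call among these genes. Cd4 was left out by the filter on low counts, and of the 9 genes tested edgeR called 0, as it called 0% of 13764 genes. None of the 9 reached an unadjusted p under 0.05, and DESeq2 also called 0, beside 0.487% of all genes. The smallest edgeR adjusted p was 0.984, and the fitted log2 fold changes ran from -1.66 for Cd247 (SE 1.45) to 0.99 for Cd3g (SE 1.90). After TMM scaling only Thy1 had both IL-5 libraries above both PBS libraries, beside 17.4% of genes, and only Cd247 both below, beside 21.1%. The median over the 9 genes was 0.0025, beside -0.023 over all genes, and it depended on which IL-5 library was kept. It was 0.67 once IL-5 replicate 1 was left out and -6.99 once IL-5 replicate 2 was left out instead. The natural killer cell genes, like the sum of the 10 genes, were lowest in IL-5 replicate 1 and highest in IL-5 replicate 2, summing to 8.62 and 51.0 CPM in IL-5 microglia, against 20.8 and 12.8 CPM in PBS microglia, and their part in the result was not tested.

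The IL-5 response of T cells minus that of microglia was tested directly in the fit of all 8 libraries. The edgeR test called 0 of the 10 genes, as it called 0% of all genes, and 1 gene had an unadjusted p under 0.05, Cd4 (unadjusted p = 0.0213, adjusted p = 0.904), whose value rests on the counts of 0 in IL-5 microglia. DESeq2 also called 0 of the 10, beside 1.18% of all genes. The median difference was -0.37 on the log2 scale, beside 0.032 over all genes. Thy1 differed by -1.04 (SE 0.57, adjusted p = 0.904). Without microglia IL-5 replicate 2 the test called 4 of the 10 as higher, beside 1.07% of all genes.

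Among the genes outside the group with the most similar pattern to Cd3e over all 8 libraries, by Pearson's r on log2(CPM + 1) among 8114 genes at 20 CPM or more in T cells, were Pfkp, Gimap3 and Rpl17, each at 0.996, and Ctsw at 0.995. The libraries fall into the 2 cell types, so that this likeness mainly ranks genes by that difference. Within the 4 T cell libraries, the mean r with the 4 chains of the complex and the 2 CD8 chains was highest for Phf11b, Eed and Gimap4, at 0.920 each, and for Wapl and Ifih1, at 0.919 each. For a chain itself the mean was taken over the other chains only. So measured, Cd3d, Cd3e, Cd3g, Cd8a, Cd8b1 and Thy1 stood between 0.841 and 0.885, Cd2 at 0.734, Cd247 at 0.558, Cd5 at 0.455 and Cd4 at -0.177. These values describe 4 libraries under a common scaling, and they carry no test.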

How the data were processed

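The authors deposited raw counts per gene, whole numbers without scaling, for 8 libraries. Per the submitters' processing notes, the tools include STAR 2.5.3a and the builds mm10 and GRCm38, with DESeq2 1.1 and Cufflinks 2.0 named without their role; the counting tool and its strand setting are not given in the sources used here. Of 24953 entries, 2 summary rows and 27 genes with unreadable cells were left out.

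Counts were tested with edgeR 4.0.16 (R 4.3.3), the quasi-likelihood test with robust dispersion on TMM-scaled counts after filterByExpr at a minimum count of 10, two-sided, with Benjamini-Hochberg adjustment over all genes tested and a threshold of 0.05. IL-5 was set against PBS in 1 fit per cell type, and all other comparisons came from a joint fit. The SE is the absolute log2 fold change over the square root of F. Folds against 0 used 3 counts per library. The fits were tested on simulated data. Ratios within libraries added 0.5 to each count, and their exact permutation tests used scipy 1.17.1. Groups of 2 cannot pass an exact permutation test. Coordinates and exonic lengths are from GENCODE M21. Plots used matplotlib 3.10.9 in Python 3.11.15.

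The 10 genes, the gene lists and the tests were chosen with earlier results of these data known. Of each list the text names up to 4 genes past the threshold in each direction, or the 3 with the smallest p. A gene named by the rule for similar patterns is not reported here. Alternatives were DESeq2 1.42.0, scaling by RLE, by library size or to other T cell genes, dropping the low-count filter or setting it at 5 CPM in 2 libraries, a replicate block, a joint fit for IL-5 against PBS, 1 count added in ratios, and leaving out each library in turn. Counting error alone limits single values of the 10 genes in T cells little at these depths, and the spread between libraries limits the comparisons. In microglia counting error also limits genes with few or no counts, such as Cd4.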

Additional observations from a re-analysis of the deposited data

Results flagged for a closer look

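Of the 10 genes, Thy1 alone had groups that did not overlap in opposite directions in the 2 cell types after TMM scaling, with both IL-5 libraries below both PBS libraries in T cells and both above in microglia. Taken singly, 17.3% of all genes tested had such groups lower in T cells and 17.4% higher in microglia. The share of genes with both was not counted. In CPM the microglia groups of Thy1 overlapped. The fitted changes of Cd3d, Cd3g and Cd8b1 also had opposite signs, with groups that overlapped in microglia. For Thy1 the difference of the responses, T cells minus microglia, was -1.04 on the log2 scale (SE 0.57), and it did not pass the test of that difference (edgeR adjusted p = 0.904). Leaving out each library in turn gave -1.28 to -0.84.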

How the results depend on the processing

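In T cells the IL-5 result kept 0 calls under each edgeR alternative and without any library, and DESeq2 called 3; the median of the 10 genes was -0.021 when scaled to other T cell genes and ran from -0.58 to -0.37 without each library. Single genes turned there: Cd3e 0.042, Cd247 0.096 and Cd2 0.0066 when scaled to other T cell genes, and without a library Cd247 ran from -0.67 to 0.15, Cd4 from -0.12 to 1.09 and Cd5 from -0.53 to 0.47. The cause was not tested.

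In microglia the median turned to -0.041 with library size only (Cd2 also -0.041), -0.15 without a filter and -0.13 with all 8 libraries in 1 fit, and ran from -6.99 to 0.67 without each library. Without each library Cd3d ran from -0.77 to 1.21, Cd3e from -10.45 to 0.12, Cd3g from -7.61 to 1.99, Cd8a from -10.91 to 0.70, Cd8b1 from -10.70 to 1.93, Cd2 from -1.21 to 0.66 and Cd5 from -9.88 to 0.49.

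For T cells over microglia the calls were 8 by DESeq2 and 5 to 10 without each library in IL-5 mice, and 9 and 3 to 10 in PBS mice. The medians were 3.75 to 13.21 without each library in IL-5 mice, and 6.07 with library size only in PBS mice. For the difference of the responses, the median ran from -1.11 to 7.09 without each library. Its highest value came without microglia IL-5 replicate 2, which left replicate 1, with 5 of the 10 genes at 0. Cd3d ran from -1.69 to 0.24, Cd3e from -0.49 to 10.62, Cd3g from -2.65 to 6.95, Cd8a from -1.28 to 10.87, Cd8b1 from -2.54 to 10.64, Cd2 from -1.07 to 0.75 and Cd5 from -0.43 to 10.45. The log2 ratio of Cd4 to the CD8 genes, T cells minus microglia, ran from -0.62 to 3.16 and is undefined in microglia IL-5 replicate 1.

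Within a cell type, IL-5 and PBS libraries of the same number showed no shared deviation (r = 0.016 in T cells and 0.014 in microglia). T cell and microglia libraries of the same number were not compared in this way. With 2 libraries in a group, these values cannot settle whether the numbers pair libraries. With the replicate block the T cell comparison kept 0 calls and a median of -0.42, and the microglia median was -2.12 with 0 calls (Cd3g -2.03, Cd8b1 -2.37, Cd2 -0.24). For T cells over microglia the block gave 7 calls in IL-5 mice, beside 304 of 15397 genes called higher. In PBS mice it gave 5 calls (median 5.01), beside 297 of 15397 genes. For the difference of the responses the block gave a median of 1.13 (Cd3g 0.67, Cd8a 1.53, Cd8b1 0.72). Of 710 values of single genes and of ratios under the alternatives, 33 turned direction. Of those that kept their direction, 37 passed a threshold they had missed and 7 lost it. Ratios could not pass with 3 libraries against 4, and 3 passed when adjusted over the 5 defined in every library.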
